A study of Mus musculus with 48 samples.

Results

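The genes described here are 6 genes expressed in red blood cells and their precursors, out of 54532 genes in the count table. They were taken by symbol: the alpha globin genes Hba-a1 and Hba-a2, the beta globin genes Hbb-bs and Hbb-bt, Alas2 and Slc4a1. The study measured RNA in full-thickness pieces of mouse gut during the first weeks of life, an age range its title links to necrotizing enterocolitis, a bowel disease of newborns. Pieces of 2 cm were taken from the duodenum, directly below the stomach outlet, and from the ileum, directly above the caecum, at 8 ages: on days 0, 2, 4, 6 and 8 after birth and at weeks 2, 3 and 4. The animals were C57Bl/6J mice of both sexes with no transgene and no treatment, kept with the dam until weaning and then fed chow, in housing that the labels call germ-free without giving more detail. Each of the 16 groups of region and age had 3 samples, numbered 1 to 3, so every comparison is between ages or between regions of untreated mice. The labels do not say which samples came from one animal or litter, beyond that a litter usually gave several ages. The pair of samples labelled day 6 sample 3 looked exchanged between the regions and was left out, which left 46 of 48 samples and 2 per region at day 6. Since nothing says that the samples of a group came from separate animals, p-values measure the spread between these samples, which may in part be technical.

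Haemoglobin is a tetramer of alpha and beta globin chains, each holding a heme group that binds oxygen. Alas2 makes the erythroid form of the first and rate-limiting enzyme of heme synthesis, and Slc4a1 makes band 3, the anion exchanger that carries bicarbonate across the red cell membrane and anchors the membrane skeleton. Red cells lose their nucleus when they mature, and young red cells, the reticulocytes, still carry globin RNA for a short time after they enter the blood. In mice red cell formation moves around birth from the liver to the spleen and bone marrow. A piece of gut holds blood in its vessels, and the RNA of those blood cells is extracted with it. In bulk tissue, fewer red cells in the piece and less RNA per red cell cannot be told apart.

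The globin genes lie in 2 clusters of near-identical copies. In GENCODE release M21, on build GRCm38, Hba-a1 lies on chr11:32283511-32284465 and Hba-a2 on chr11:32296489-32297298, both on the plus strand. Hbb-bs lies on chr7:103826534-103828096 and Hbb-bt on chr7:103812524-103813996, both on the minus strand. Alas2 is on chrX:150547375-150570638 on the plus strand, and Slc4a1 is on chr11:102348824-102366203 on the minus strand. All 6 are protein-coding genes, and each count covers the exons of the whole gene. The coding sequence of Hba-a1 is 429 bases long and differs from that of Hba-a2 at 1 base. That of Hbb-bs is 444 bases long and also differs from that of Hbb-bt at 1 base. The stretches of 41 coding bases around those differences are shown because they hold all that separates the copies within the coding sequence. The capital marks the differing base, at coding position 381 of the alpha pair and 417 of the beta pair, counted from 1 at the start codon.
Hba-a1: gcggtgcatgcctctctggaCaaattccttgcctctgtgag
Hba-a2: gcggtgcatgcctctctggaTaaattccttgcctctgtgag
Hbb-bs: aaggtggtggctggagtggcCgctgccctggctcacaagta
Hbb-bt: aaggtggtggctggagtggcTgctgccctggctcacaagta
Of all 50-base windows of the coding sequence, 87.1% were the same in both alpha genes and 92.9% were the same in both beta genes. Reads from such windows were divided between the copies by the estimation model, so the split within each pair is less certain than the sum of the pair.

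The 100 bases before the RefSeq start sites of an alpha and a beta globin gene are shown for the letters they share. The part of these letters in the levels measured here was not tested. The table used, from RefSeq on GRCm38.p6, held an entry for 5 of the 6 genes. The GENCODE genes begin further upstream: exons of GENCODE take up 3 bases of the window of Hba-a2, 17 of Hbb-bs, 42 of Alas2, 73 of Hbb-bt and all 100 of Hba-a1, and those with over 30 are not printed. Capitals mark CACCC, the core of the site of Klf1, then the CAAT box CCAAT, and the TATA box TATAA. The core GATAA of the sites of Gata factors was searched as well, and each motif was searched on both strands. The windows are chr11:32296392-32296491 for Hba-a2 and chr7:103827929-103828028 for Hbb-bs, printed 5′ to 3′ on the strand of the gene.
Hba-a2: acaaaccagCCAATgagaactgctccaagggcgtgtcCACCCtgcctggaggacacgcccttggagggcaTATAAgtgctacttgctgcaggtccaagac
Hbb-bs: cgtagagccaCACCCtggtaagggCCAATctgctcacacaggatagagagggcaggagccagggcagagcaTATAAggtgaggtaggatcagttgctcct
All 5 windows searched held CACCC, which was also in 27.2% of the 32851 promoter windows of this length. The 4 globin windows held CCAAT, found in 18.9% of all windows, and TATAA, found in 10.2%, and the Alas2 window held neither. GATAA was in the Alas2 window among these 5 and in 8.55% of all windows.

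The libraries held 16824021 to 65042327 estimated counts, and all 6 genes had counts in all 46 samples. The 4 globin genes together made up between 0.00716% and 0.377% of a library, with a median of 0.0506%. Counts per sample ran from 652 to 62243 for Hbb-bs, from 18 to 2251 for Alas2 and from 3 to 678 for Slc4a1, so counting error is small for the globins and large for Slc4a1 where it is low. Levels are given below as CPM, a count set in proportion to the scaled size of its library. One library stood apart for these genes: duodenum day 4 number 3 had the highest level of all 46 samples for each of the 6 genes, and its 4 globin genes summed to 4338 CPM where the other 2 samples of its group had 548 and 566 CPM. In the ileum of the same age, number 1 was low at 89.2 CPM, against 996 and 520 CPM in numbers 2 and 3. Markers of intestinal epithelium were abundant in every group, with the 8 marker genes summing to at least 3933 CPM. Smooth muscle markers were low for a piece described as whole thickness: the 6 markers summed to between 4.68 and 194 CPM, with Acta2 at a median of 5.89 CPM and Myh11 at 8.16 CPM.

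Across the 46 samples the 6 genes varied together. The summed level of the 4 globin genes ranged 64.9-fold, from 66.8 CPM in ileum day 2 number 2 to 4338 CPM. The range was 57.5-fold for Hba-a1, 71.9-fold for Hba-a2, 61.1-fold for Hbb-bs, 94.6-fold for Hbb-bt and 87.6-fold for Alas2. Slc4a1 ranged 188-fold, from 0.0782 CPM, or 3 counts, in duodenum week 4 number 1 to 14.7 CPM. Without duodenum day 4 number 3 the range of the summed globins was 43.7-fold, those of the globin genes were 39.2-fold to 53.7-fold, that of Alas2 was 46.1-fold and that of Slc4a1 was 158-fold, with duodenum day 0 number 3 then highest for all 6 genes. Per 1000 bases of transcript, the median level was 341 CPM for Hbb-bs, 219 for Hba-a2, 147 for Hba-a1, 52.3 for Hbb-bt, 4.13 for Alas2 and 0.276 for Slc4a1. As a description over the 46 samples, which share libraries between genes, Pearson's r of log2 CPM was 0.986 between Hbb-bs and Alas2 and 0.986 between Hba-a1 and Hbb-bs. It was lowest between Alas2 and Slc4a1, at 0.833. The plot of CPM by age shows each gene in each sample.

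**Figure D1:**
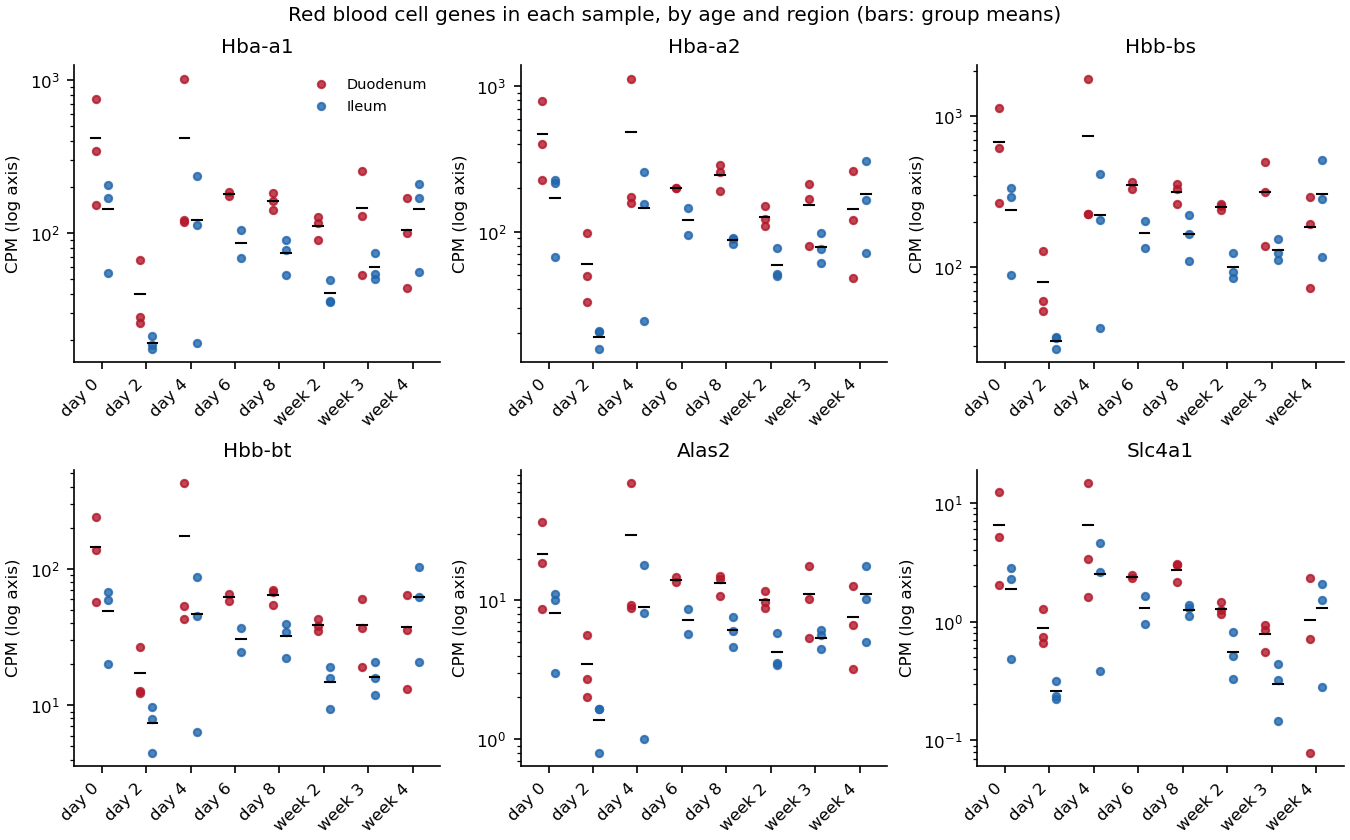
Level of each of the 6 genes in CPM (y axis, log scale) at the 8 ages (x axis), with 1 point per sample, red for duodenum and blue for ileum, and a bar at each group mean. All 6 genes are low at day 2 in both regions, and the single highest point of every panel is duodenum day 4 number 3.

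The first comparison asked whether the genes changed with age at all. In the duodenum 6 of the 6 genes passed the test over the 8 ages, where 67.4% of the 21986 genes tested did so, with adjusted p (edgeR quasi-likelihood test, Benjamini-Hochberg) from 6.1e-04 for Slc4a1 to 0.020 for Alas2. In the ileum 5 of 6 passed, against 58.7% of all genes, and Alas2 did not (adjusted p = 0.079 by the same edgeR test). Leaving out one ileum sample at a time gave between 2 and 6 genes called, with 2 when ileum day 2 number 2 was left out. The share of all genes called in those fits is not given. Most genes tested changed with age, so the calls of the 6 genes are read against that background.

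Between day 0 and day 2 the globin genes fell in both regions. Hbb-bs, the more abundant of the beta globin copies, was at 266, 616 and 1134 CPM in the 3 duodenum samples of day 0 and at 51.1, 59.5 and 128 CPM in those of day 2. In the ileum it was at 88.5, 336 and 290 CPM at day 0 and at 34.6, 29.0 and 33.9 CPM at day 2. No day 2 sample reached the lowest day 0 sample in either region, although the day 0 samples themselves differed several-fold. The fitted change was -3.08 ± 0.76 on the log2 scale (standard error, 3 samples a group) in the duodenum, or 8.44-fold lower, and -2.87 ± 0.76 in the ileum, or 7.33-fold lower.

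Hba-a1 was at 154, 344 and 756 CPM at day 0 and at 25.9, 28.5 and 66.9 CPM at day 2 in the duodenum. In the ileum its values were 55.4, 205 and 169 CPM at day 0 and 18.7, 17.7 and 21.4 CPM at day 2. Alas2, which sets the pace of heme synthesis in red cell precursors, was at 8.73, 18.7 and 36.8 CPM at day 0 and 2.03, 2.71 and 5.66 CPM at day 2 in the duodenum. The groups did not overlap for either gene. Slc4a1, the band 3 gene, was at 2.02, 5.15 and 12.4 CPM at day 0 and 0.742, 0.657 and 1.27 CPM at day 2 in the duodenum. In the ileum Slc4a1 was at 0.480, 2.84 and 2.28 CPM at day 0 and 0.317, 0.222 and 0.238 CPM at day 2, where its counts were only 5 to 10 per sample.

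In the duodenum all 6 genes fell between day 0 and day 2, by 2.62 (Alas2) to 3.37 (Hba-a1) on the log2 scale, with adjusted p from 0.0072 to 0.028 by the edgeR test. Among all genes, 3.22% were called lower in this comparison and 3.58% higher. All 6 also had every day 2 sample below every day 0 sample, as did 16.8% of all genes. In the ileum the 4 globin genes fell, by 2.71 (Hbb-bt) to 3.16 (Hba-a2) on the log2 scale, with adjusted p from 0.0096 to 0.043 in edgeR, and 2.61% of all genes were called lower and 2.59% higher. Alas2 changed by -2.55 ± 0.81 and Slc4a1 by -2.82 ± 0.91 in the ileum, short of the threshold with adjusted p of 0.060 and 0.064 in edgeR. The samples did not overlap for any of the 6 genes in the ileum, as for 13.6% of all genes that were lower at day 2.

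Single samples decided these calls. In the duodenum the range over the 6 genes was -2.63 to -1.98 without day 0 number 3, the highest day 0 sample, and none of the 6 then passed (lowest edgeR adjusted p = 0.052). None passed without day 2 number 1 (lowest edgeR adjusted p = 0.051) and 1 passed without day 2 number 2, while 5 or 6 passed without any one of the other 3. In the ileum 0 passed without day 2 number 3, 1 passed without day 2 number 1, day 2 number 2, day 0 number 2 or day 0 number 3, and 6 passed without day 0 number 1. Fitted on the groups compared alone, 1 of 6 was called in the duodenum and 6 of 6 in the ileum. With the day 4 samples out of the fit, 6 of 6 were called in each region, and DESeq2 also called 6 of 6 in each. Shares of all genes called are not given for these other fits.

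**Figure D2:**
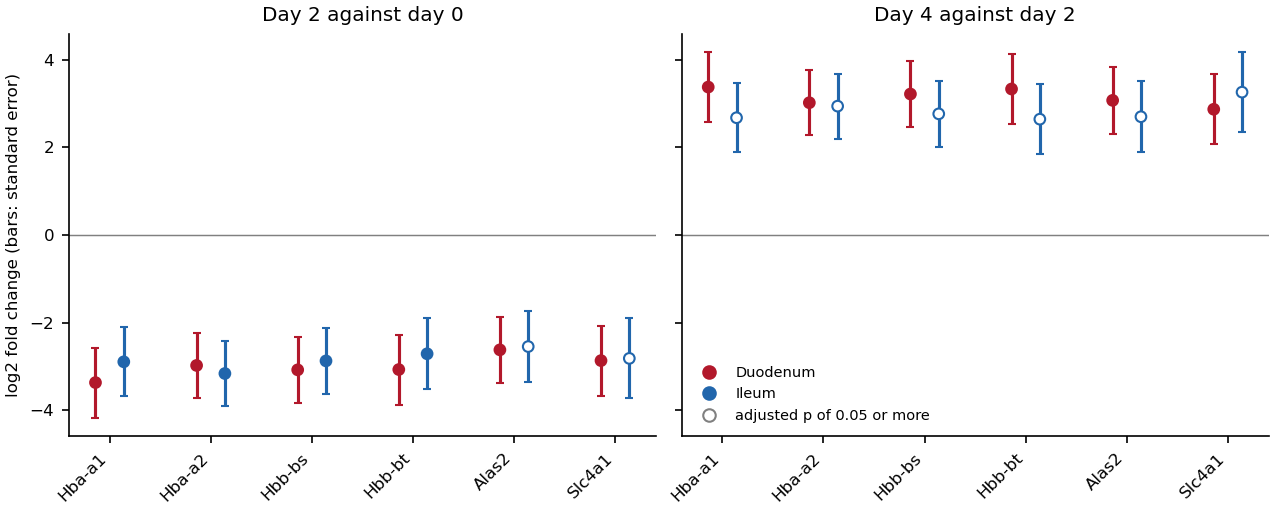
Log2 fold change (y axis, bars are the standard error) of each gene from day 0 to day 2 (left) and from day 2 to day 4 (right), red for duodenum and blue for ileum, with open circles where the adjusted p was 0.05 or more. All 12 values on the left lie between -3.37 and -2.55, and all 12 on the right lie between 2.64 and 3.37.

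From day 2 to day 4 the genes rose in the duodenum, with 1 of the 3 day 4 samples far above the others. Hbb-bs stood at 226, 223 and 1769 CPM in the day 4 samples of the duodenum, and its change from day 2 was 3.22 ± 0.76 on the log2 scale. All 6 genes rose in the duodenum, by 2.87 (Slc4a1) to 3.37 (Hba-a1), with adjusted p from 0.0026 to 0.0079 by the edgeR test, where 15.5% of all genes were called higher and 9.78% lower. For all 6 every day 4 sample was above every day 2 sample, as for 18.4% of all genes. Without number 3 the values were 1.37 to 1.57 on the log2 scale, and 0 of 6 passed (edgeR adjusted p from 0.12 to 0.20). The share of all genes called without that sample is not given. Fitted on the day 2 and day 4 duodenum samples alone, 0 of 6 passed in edgeR, with adjusted p from 0.083 to 0.086, and 0 of all 21838 genes tested passed.

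In the ileum Hbb-bs was at 39.5, 416 and 206 CPM at day 4, so that number 1 stayed close to the day 2 samples and the other 2 samples were far above them. The changes were 2.64 (Hbb-bt) to 3.26 (Slc4a1) on the log2 scale and 0 of 6 passed the edgeR test, with adjusted p from 0.16 to 0.23 and 7 genes, or 0.0318%, called among all genes. All 6 had an unadjusted p under 0.05 in edgeR, and DESeq2 called 5 of 6. Without ileum day 4 number 1, 6 of 6 passed, at 3.16 to 3.76 on the log2 scale. Shares of all genes called by DESeq2 and in the fit without that sample are not given. Day 4 samples did not overlap day 2 samples for 3 of 6 genes, against 5.72% of all genes that were higher.

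After day 4 edgeR, fitted on all groups, called no step between neighbouring ages for any of the 6 genes in either region, and DESeq2 called 1, given below. Fitted on the groups compared alone, edgeR called 4 of 6 in the duodenum and 3 of 6 in the ileum from day 8 to week 2, and 1 of 6 in the ileum from week 2 to week 3. The fit on all groups called, over the 5 steps in order, 5.82%, 0.0728%, 15.7%, 18.3% and 12.7% of all genes in the duodenum. In the ileum it called 1.34%, 0.173%, 6.64%, 26.8% and 16.1%. No share of all genes is given for the fits on the groups compared alone or for DESeq2. In the duodenum the summed globin level was 763 and 820 CPM at day 6 and 650 to 899 CPM at day 8, with little spread among samples. It was 516 to 547 CPM at week 2, 290 to 1022 CPM at week 3 and 178 to 785 CPM at week 4, so the samples spread more widely at the last 2 ages. In the ileum the sum was 324 and 488 CPM at day 6, 267 to 428 CPM at day 8, 178 to 269 CPM at week 2, 239 to 347 CPM at week 3 and 265 to 1129 CPM at week 4. In these 5 steps edgeR gave an unadjusted p under 0.05 only for Hbb-bt (1.93 ± 0.78) and Slc4a1 (2.02 ± 0.95) in the ileum from week 3 to week 4. Their adjusted p in edgeR was 0.091 and 0.16, and DESeq2 called 1 of 6 at that step. From day 8 to week 2 every week 2 sample was lower than every day 8 sample for 5 of 6 genes in the duodenum and for 4 of 6 in the ileum, against 26% and 16% of all genes that were lower without overlap. 

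The order of the group means places day 2 lowest for the summed globins in both regions. In the duodenum it was followed by week 4 (470 CPM), week 2 (529), week 3 (653), day 8 (788), day 6 (792), day 0 (1707) and day 4 (1817). Without number 3 the duodenum mean at day 4 was 557 CPM, between week 2 and week 3. In the ileum day 2 (78.1 CPM) was followed by week 2 (214), week 3 (284), day 8 (358), day 6 (406), day 4 (535), day 0 (600) and week 4 (690). Neighbours in these orders overlapped in their samples, with the exception of day 2 and week 2 in the ileum. For Slc4a1 the lowest mean in the duodenum was at week 3 (0.781 CPM) rather than at day 2 (0.890 CPM), and the samples of those ages overlapped.

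From day 0 to week 4 most of the genes fell in the duodenum. There 5 of 6 genes fell, where 20.1% of all genes were called lower and 20.4% higher. The log2 changes were -2.66 ± 0.79 for Slc4a1, -2.00 ± 0.76 for Hba-a1, -1.95 ± 0.76 for Hbb-bt, -1.85 ± 0.72 for Hbb-bs and -1.73 ± 0.71 for Hba-a2. Their adjusted p ranged from 0.0071 to 0.049 in edgeR, and Alas2 stood at -1.51 ± 0.72 (adjusted p = 0.095). The samples overlapped for all 6 genes, since day 0 number 1 lay within the week 4 range. The calls depended on single samples: without duodenum day 0 number 3 no gene passed, without day 0 number 2 there were 2, and without week 4 number 1 or number 3 there was 1. Fitted without a filter on low counts 1 passed, and on the groups compared alone 0 passed. For these other fits the share of all genes called is not given. In the ileum the changes were -0.60 ± 0.81 (Slc4a1) to 0.43 ± 0.73 (Alas2), 0 of 6 passed in edgeR and in DESeq2, none had an unadjusted p under 0.05, and 20.4% of all genes were called lower and 21.5% higher.

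The second question was whether the regions differ. Averaged over the 8 ages, all 6 genes were lower in the ileum than in the duodenum. The log2 difference was -1.15 ± 0.30 for Slc4a1, -1.11 ± 0.25 for Hba-a2, -1.11 ± 0.27 for Hba-a1, -1.08 ± 0.28 for Hbb-bt, -1.05 ± 0.26 for Hbb-bs and -1.04 ± 0.27 for Alas2, or 2.05-fold to 2.22-fold lower. The adjusted p ranged from 3.7e-04 to 0.0012 in edgeR, and 30.2% of all genes were called lower in the ileum and 31.9% higher. With any 1 of the 46 samples left out all 6 genes still passed, and the smallest difference so obtained was -0.83 for Alas2, without duodenum day 4 number 3. For the fits with a sample left out the share of all genes called is not given.

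At single ages the difference did not pass the test for any gene. Of the 48 tests, 6 genes at 8 ages, edgeR called 0, 12 had an unadjusted p under 0.05, and DESeq2 called 4, all at day 4. Fitted on all groups, edgeR called 6.1%, 8.01%, 26.6%, 35.3%, 39.6%, 22.4%, 14.2% and 28.4% of all genes at the 8 ages in order. Fitted on the groups of each age alone, 18 of the 48 tests were called, and no share of all genes is given for those fits or for DESeq2. The ileum samples all lay below the duodenum samples for 6 of 6 genes at day 2, day 6, day 8 and week 2, where 21.4%, 36.1%, 33.3% and 22.9% of all genes were lower without overlap. The mean of the summed globins in the ileum, divided by that in the duodenum, was 0.351, 0.396, 0.294, 0.513 and 0.455 on days 0, 2, 4, 6 and 8, and 0.406 and 0.434 at weeks 2 and 3. Without duodenum number 3 the day 4 ratio was 0.961, so the low value at that age came with 1 library.

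At week 4 the means stood the other way, with the ileum at 1.47 times the duodenum. The summed globins were 178, 785 and 447 CPM in the duodenum and 677, 265 and 1129 CPM in the ileum at that age, and the groups overlapped. The log2 difference was 0.25 ± 0.82 (Slc4a1) to 0.72 ± 0.75 (Hbb-bt), and no gene was called. The test of whether the regional difference changed with age called 0 of 6 genes, with an unadjusted p under 0.05 for none and adjusted p from 0.51 to 0.80 in edgeR, where 22.4% of all genes were called. DESeq2 called 0 of 6 for that interaction as well, and its share of all genes is not given. The sign at week 4 is therefore not shown to differ from the other ages.

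**Figure D3:**
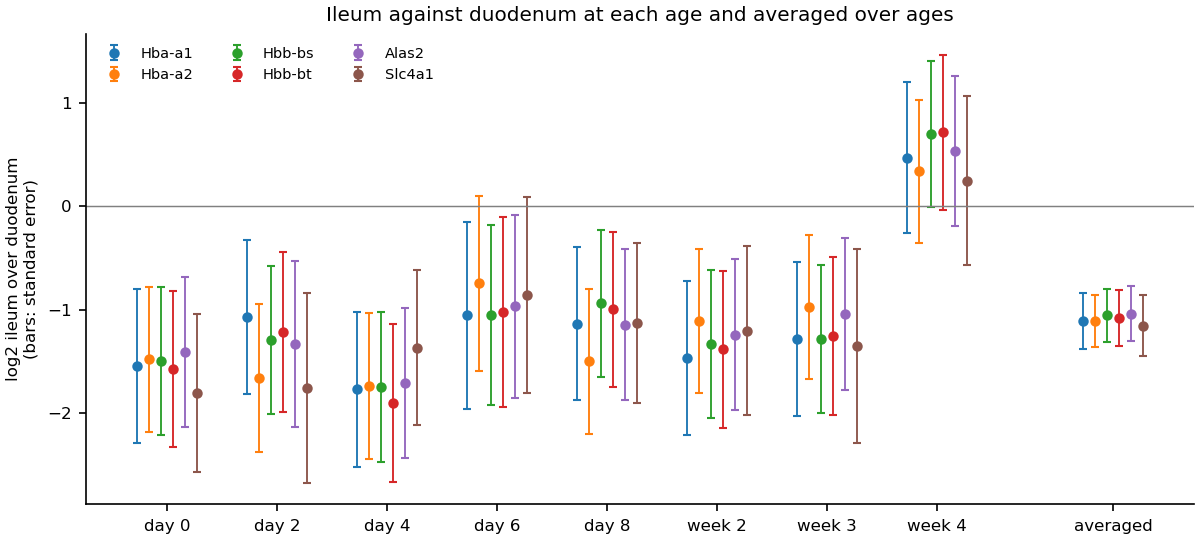
Log2 difference between ileum and duodenum (y axis, bars are the standard error) of each gene at each age and averaged over the 8 ages (x axis). The values are below 0 for all genes from day 0 to week 3, above 0 at week 4, and between -1.15 and -1.04 in the average.

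Duodenum and ileum samples of one age share sample numbers, and the ileum was lower in 20 of the 23 same-numbered pairs for each of the 6 genes. The median ratio of ileum to duodenum over those pairs was 0.424 for the summed globins, with a range of 0.120 to 3.81. Whether the numbers mark the same animal was checked on the deviations from the group means. Across the 23 pairs the deviations of log2 summed globins in the regions had a Pearson's r of 0.226 (permutation p = 0.65, two-sided, numbers permuted within age) and a Spearman's rho of 0.352 (permutation p = 0.23). Without the 2 pairs farthest from the median, r was 0.206. A relation between the globin levels of same-numbered samples was not detectable with these numbers.

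The third set of comparisons concerned the proportions among the genes, in which a change common to all of them cancels. The proportions were related to age in days within each region, as 8 relations with p-values adjusted over them, all from two-sided permutation tests with 100000 permutations over 23 samples. The ratio of Slc4a1 to the globins was lowest at the last 2 ages in the group means of both regions. Slc4a1 had 2.88, 3.44 and 4.23 counts per 1000 globin counts in the duodenum samples of day 0, 3.98 to 6.06 at day 2, 2.95 to 5.91 at day 4, 2.12 to 2.77 at week 2, 0.921, 1.31 and 1.91 at week 3 and 0.440, 1.58 and 2.94 at week 4. In the ileum it had 2.09, 3.1 and 3.4 at day 0, 2.83 to 3.80 at day 2, 4.31 to 5.04 at day 4, 1.83 to 3.03 at week 2, 0.606, 1.21 and 1.25 at week 3 and 1.05, 1.83 and 2.24 at week 4. The week 3 samples lay below every sample of day 0 in both regions, the week 4 samples overlapped those of day 0, and the ileum samples of day 4 lay above those of day 0.

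For the log2 ratio of Slc4a1 to globins, Spearman's rho with age was -0.775 in the duodenum (permutation p = 5e-05, adjusted 4.0e-04) and Pearson's r was -0.769 (permutation p = 1e-05, the smallest these permutations can give). In the ileum rho was -0.619 (permutation p = 0.0022, adjusted 0.0060) and r was -0.719 (permutation p = 2.5e-04). The farthest age from the median is week 4, whose 3 samples are tied, and without them r was -0.829 for duodenum samples and -0.754 for those of the ileum. The relation therefore did not rest on the week 4 samples. Counts of Slc4a1 were low at the last 2 ages, with 3 in duodenum week 4 number 1 and in ileum week 3 number 3. Leaving out one sample at a time kept rho between -0.858 and -0.749 in the duodenum and between -0.715 and -0.573 in the ileum.

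Alas2 kept close to the globins. It had 12.4, 12.5 and 12.6 counts per 1000 globin counts in the duodenum at day 0 and 16.6 to 18.1 at day 2, with no overlap, and group means from 16.2 to 19.1 at all later ages. In the ileum it had 13.0 to 13.8 at day 0 and group means of 14.9 to 19.7 afterwards. The relation with age over all samples was not detected: rho was 0.328 in the duodenum (permutation p = 0.13, adjusted 0.13) with r at 0.313 (permutation p = 0.15), and rho was 0.341 in the ileum (permutation p = 0.11, adjusted 0.13) with r at 0.367 (permutation p = 0.086). Without the week 4 samples r was 0.498 and 0.555.

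The share of Hbb-bt among both beta globin copies had its lowest group means at week 2 and week 3 in both regions. In the duodenum it was 17.5% to 18.2% at day 0, 16.3% to 17.0% at day 8, 11.9% to 14.3% at week 2, 10.5% to 12.1% at week 3 and 15.4% to 17.9% at week 4. In the ileum it was 16.6% to 18.4% at day 0, 15.0% to 17.4% at day 8, 10.1% to 14.7% at week 2, 9.68% to 11.8% at week 3 and 15.2% to 17.9% at week 4. The week 3 samples lay below every sample of days 0 to 8 and of week 4 in both regions. Against age, rho was -0.639 in the duodenum (permutation p = 0.0013, adjusted 0.0054) with r at -0.564 (permutation p = 0.0053). In the ileum rho was -0.482 (permutation p = 0.020, adjusted 0.032) with r at -0.414 (permutation p = 0.050, adjusted 0.099). The ileum relation by rho missed the threshold when any 1 of 9 of the 23 samples was left out: day 0 number 1, day 2 numbers 1 and 3, day 4 number 3, week 2 numbers 1 and 3, and each week 3 sample. The adjusted permutation p was then 0.052 to 0.081, and it was 0.069 without the day 4 samples. Without the week 4 samples r was -0.892 and -0.772. These shares rest on the estimation model's split of reads between copies that differ at 1 coding base. The transcripts, of 628 bases for Hbb-bs and 703 for Hbb-bt, were not compared outside their 444 coding bases.

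The alpha genes stood near the beta genes in number. At week 2 the ratio of counts of both Hba genes to counts of both Hbb genes was 0.759 to 0.873 in the duodenum, below every sample of day 0 (0.988 to 1.18), and 0.806 to 0.905 in the ileum, below every sample of day 0 (1.07 to 1.12). Against age, rho of the log2 ratio was -0.602 in the ileum (permutation p = 0.0030, adjusted 0.0061) with r at -0.356 (permutation p = 0.094). In the duodenum rho was -0.371 (permutation p = 0.082, adjusted 0.11) with r at -0.272 (permutation p = 0.21), and r was -0.757 without the week 4 samples. Hba-a1 made up 36.6% to 54.3% of the alpha counts.

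**Figure D4:**
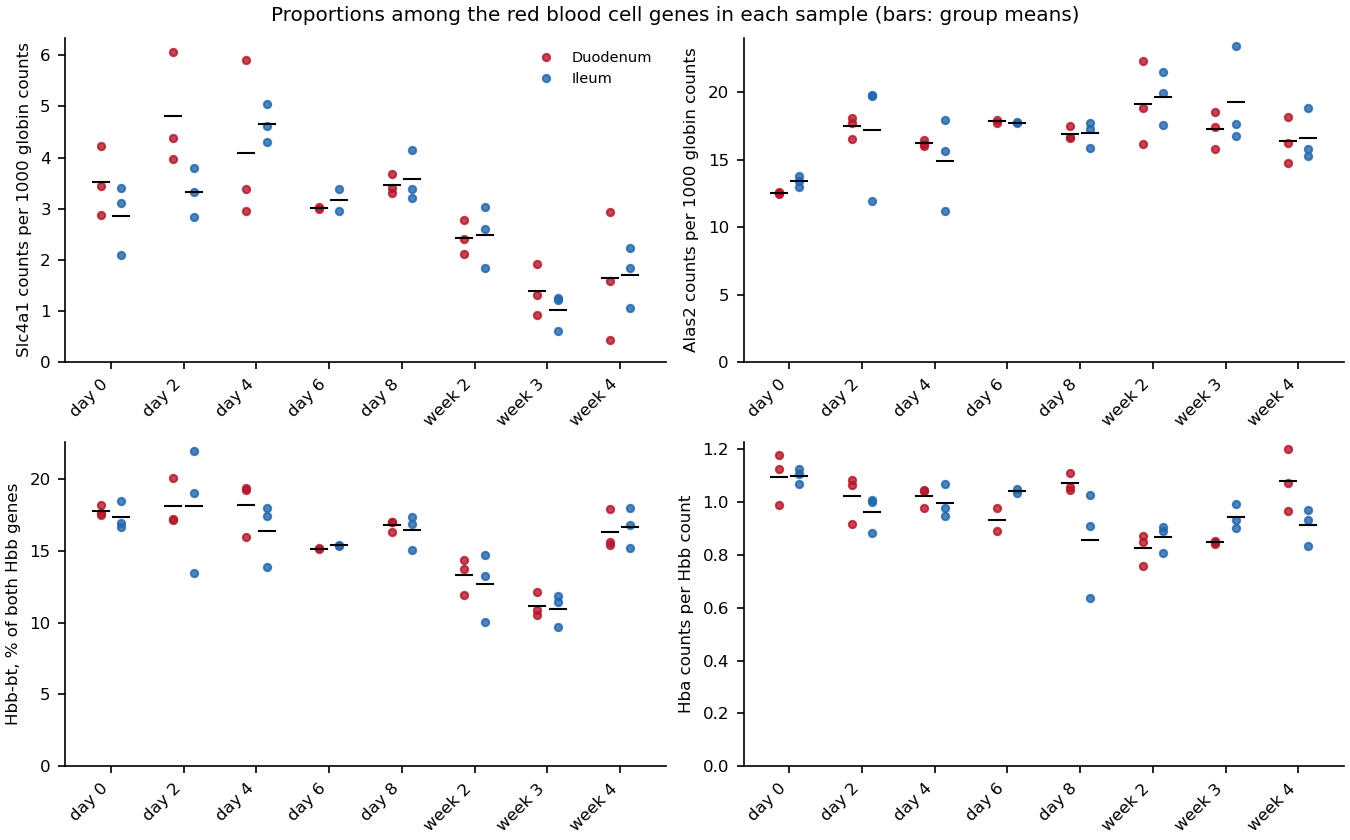
Proportions among the genes in each sample (y axes, all from 0) at the 8 ages (x axis): Slc4a1 and Alas2 counts per 1000 globin counts, the percentage of Hbb-bt among both Hbb genes, and Hba counts per Hbb count, with points in red for duodenum and blue for ileum and bars at group means. Slc4a1 and Hbb-bt are lowest at week 3 in the group means of both regions, with Hbb-bt back at 16.3% and 16.6% at week 4.

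Other globin genes were near the limit of detection. None of 7 passed the filter on low counts: Hbb-bh2 and Hbb-bh0 had 0 counts in all 46 samples, and Hbb-bh1 had 7. The embryonic beta-like gene Hbb-y, used in the first red cells of the yolk sac, had 21 counts, of which 18 were in the 3 duodenum samples of day 0, at 1, 10 and 7 counts. The embryonic alpha-like gene Hba-x had 23 counts, of which 16 were in the same samples, at 1, 4 and 11 counts, and 3 in the ileum samples of day 0. The same 3 duodenum samples held 218457 counts of the adult globin genes. The 3 ileum samples of day 0 held 57142 adult globin counts beside 1 count of Hbb-y and 3 of Hba-x. From day 4 on Hbb-y had 1 count and Hba-x had 2 in all samples together. No test was made on counts this low. The theta globin genes Hbq1a and Hbq1b had 15 and 31 counts, spread over several ages.

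Of the other genes of the red cell membrane and skeleton, 15 of 18 passed the filter, and 2 of the 15 were called lower at day 2 in each region, beside 3.22% and 2.61% of all genes. Among those called were Epb41 (-0.42 ± 0.12) in the duodenum and Dmtn (-1.01 ± 0.29) in the ileum, both of the membrane skeleton. The median change of the 15 was -0.36 in the duodenum and -0.63 in the ileum on the log2 scale, where the medians of all genes were -0.01 and 0.00. From day 0 to week 4, 7 of 15 were called lower and 1 higher in the duodenum, and 3 lower and 3 higher in the ileum. Among all genes 20.1% were called lower and 20.4% higher in the duodenum, and 20.4% and 21.5% in the ileum, so the ileum counts stand near the background. Examples are Kel, a red cell surface peptidase, at -5.78 ± 0.83 and -5.74 ± 1.01 on the log2 scale, and the water channel Aqp1, which rose by 1.64 ± 0.28 and 1.21 ± 0.28, each in duodenum and ileum.

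Of the other genes of heme synthesis 1 fell at day 2. All 13 passed the filter, and at day 2 only Cpox, an oxidase of the later steps, was called, in both regions: it fell by 1.02 ± 0.14 in the duodenum and by 0.58 ± 0.14 in the ileum. Of all genes, 3.22% were called lower and 3.58% higher at day 2 in the duodenum, and 2.61% and 2.59% in the ileum. A count of 1 of 13 cannot be told apart from these shares. The median change of the 13 at day 2 was 0.14 and 0.02. Alas1, the form of the first enzyme that all tissues use, was at a median of 36.0 CPM and rose from day 0 to week 4 by 1.99 ± 0.21 in the duodenum and by 1.68 ± 0.21 in the ileum. By then 7 of 13 were called higher and 2 lower in the duodenum, and 3 higher and 5 lower in the ileum, beside 20.4% higher and 20.1% lower of all genes in the duodenum and 21.5% and 20.4% in the ileum. Slc25a37, the mitochondrial iron importer, rose by 1.27 ± 0.20 and 1.41 ± 0.20, and Fech, which puts iron into heme, fell by 0.77 ± 0.16 and 1.05 ± 0.16, in the same order of regions.

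The 11 erythroid transcription factors of the list summed to between 56.1 and 245 CPM per sample, most of it from Zfpm1 and Ldb1, while Gata1 and Klf1 were low. Gata1, the factor that drives red cell differentiation, had 112 counts in all 46 samples together and a median of 0.0284 CPM, and Klf1, the activator of the adult beta globin genes, had 504 counts. Of 11 factors, 1 was called higher at day 2 in the duodenum, beside 3.58% of all genes. In the ileum 1 was called higher and 1 lower, beside 2.59% and 2.61% of all genes. The rise was of Hemgn in both regions, by 2.02 ± 0.38 and 2.44 ± 0.51, and the fall in the ileum was of Ldb1, by 0.73 ± 0.14. Of 19 other erythroid genes 17 passed the filter, and 2 rose and 2 fell at day 2 in the duodenum while 3 rose and 2 fell in the ileum, where the same shares of all genes apply, with 3.22% lower in the duodenum. Among them Tfrc, the transferrin receptor, rose by 0.92 ± 0.25 and 1.32 ± 0.26, and the potassium channel gene Kcnn4 rose by 2.35 ± 0.40 and 2.62 ± 0.51.

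Genes for clearing heme and haemoglobin include receptors, carriers and enzymes. Hmox1, heme oxygenase, also fell at day 2, by 3.24 ± 0.36 in the duodenum and by 2.58 ± 0.35 in the ileum, and from day 0 to week 4 it fell by 6.91 ± 0.45 and 7.41 ± 0.46. Hp, which makes haptoglobin, the plasma carrier of free haemoglobin, fell by 3.88 ± 0.94 at day 2 in the duodenum and stood at -1.09 ± 0.97 in the ileum (edgeR adjusted p = 0.58). Cd163, the macrophage receptor for that complex, changed by -2.80 ± 0.90 in the duodenum (edgeR adjusted p = 0.052). Over the list of 10, day 2 gave 1 higher and 2 lower in the duodenum and 1 lower in the ileum. Among all genes 3.58% were called higher and 3.22% lower in the duodenum, and 2.61% lower in the ileum. From day 0 to week 4, 5 of 10 were called lower in the duodenum and 4 of 10 in the ileum, with 0 higher in either. The shares of all genes called lower were 20.1% and 20.4%. Slc40a1, the iron exporter ferroportin, was not called at day 2 and fell by 2.72 ± 0.48 and 2.79 ± 0.48 by week 4.

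Markers of other cells that share the vessels or the tissue were set beside these changes. Of 10 neutrophil markers that passed the filter, 5 were called lower at day 2 in the duodenum, as were 2 in the ileum, beside 3.22% and 2.61% of all genes, with median changes of -2.10 and -1.33. S100a9, a calprotectin subunit, fell by 3.87 ± 0.82 in the duodenum and by 3.24 ± 0.93 in the ileum, and Lcn2, lipocalin 2, fell by 2.92 ± 0.59 and 2.87 ± 0.74. The neutrophil list summed to 15.7 to 55.0 CPM at day 0 and 8.82 to 9.90 CPM at day 2 in the duodenum, and to 20.5 to 26.6 and 13.0 to 19.8 CPM in the ileum. From day 2 to day 4 edgeR called 0 of 10 in either region. At that step 15.5% of all genes were called higher and 9.78% lower in the duodenum, and only 0.0318% were called in the ileum. The neutrophil sum at day 4 was 5.91 to 15.2 CPM in the duodenum. Of 7 platelet genes, Gp1ba fell at day 2 in both regions, by 1.57 ± 0.33 and 1.49 ± 0.36, and no other was called there. Of the neutrophil list, Elane had 11 counts in all samples, and Mpo was at 0 in the median sample. The part of these cells in the change of the red cell genes was not tested.

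Endothelial markers track the vessels themselves. At day 2 none of 10 was called in the duodenum, beside 3.58% of all genes called higher and 3.22% lower. In the ileum 1 was called lower, beside 2.61% of all genes. With 10 genes, counts of 0 and 1 cannot be told apart from those shares. The median changes were -0.25 and -1.05 in the same order of regions. The list summed to 157 to 324 CPM at day 0 and 166 to 235 CPM at day 2 in the duodenum. In the ileum it summed to 71.5 to 335 CPM at day 0 and 63.5 to 141 CPM at day 2. From day 2 to day 4, while the red cell genes rose there, 8 of 10 endothelial markers fell in the duodenum, beside 9.78% of all genes. By week 4 they had fallen for 10 of 10 in the duodenum and 8 of 10 in the ileum, beside 20.1% and 20.4% of all genes, with Cdh5, VE-cadherin, at -5.83 ± 0.59 on the log2 scale in the duodenum. Averaged over ages 8 of 10 were higher in the ileum, the opposite direction to the red cell genes, with a median of 0.81. All 6 smooth muscle markers were also higher in the ileum, with a median of 1.95, and 31.9% of all genes were called higher there. Within day 0 the endothelial sum stood in the same order as the globin sum in the duodenum, at 157, 244 and 324 CPM in numbers 1, 2 and 3 where the globins were at 702, 1498 and 2920 CPM. Duodenum day 4 number 3, the sample highest in globins, had an endothelial sum of 56.0 CPM between the 94.9 and 17.3 CPM of numbers 1 and 2, and its smooth muscle sum was 41.6 CPM against 5.53 and 5.44. In the ileum at day 0 number 1 was lowest in both, at 71.5 CPM for endothelium and 230.4 CPM for globins. The part of vessels or muscle in the results was not tested.

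**Figure D5:**
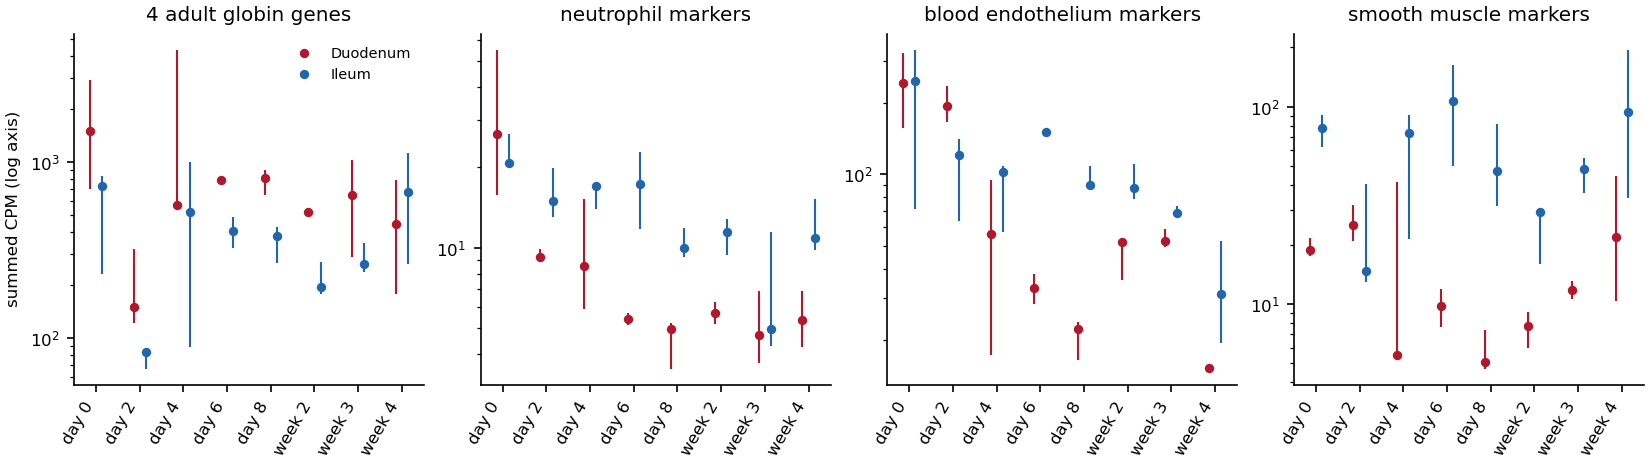
Summed CPM (y axes, log scale) of the 4 adult globin genes and of the neutrophil, blood endothelium and smooth muscle marker lists at the 8 ages (x axis), with a point at the group median and a line from the lowest to the highest sample, red for duodenum and blue for ileum. The globins are lower at day 2 than at day 0 and day 4. Medians of the endothelial list are also lower at day 2 than at day 0, with overlapping samples in each region. For the duodenum they are 195 CPM against 244, and for the ileum 121 CPM against 248. At later ages the endothelial list is higher in the ileum.

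Hepatocyte markers were included because the liver lies against the duodenum and makes blood before birth. Alb, albumin, was at a median of 0.135 CPM and Ahsg had 40 counts in all samples. The 7 markers that passed the filter summed to 189 to 602 CPM in the duodenum and 1384 to 4653 CPM in the ileum at day 0, and Afp, with 376426 counts in all samples, is also used by the young gut. Within day 0 the sum was 602 CPM in duodenum number 1, the lowest in globins, and 189 CPM in number 3, the highest. Its part in the results was not tested.

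The genes most like the 6 over the 46 samples were found by Pearson's r of log2 CPM with the mean of the standardised values of the 6. Among the 12 highest, Trim10, a gene of terminal red cell maturation, ranked 12 at r = 0.637. Ahead of it were Fam220a (0.730), mt-Nd1 (0.693), Ccl9 (0.691), Isg20 (0.674), Fabp5 (0.659), H4f16 (0.651), mt-Atp8 (0.650), D16Ertd472e (0.650) and Rps16 (0.637). These values are descriptions with no test, over samples that share age groups and scaling.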

How the data were processed

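RNA of duodenum and ileum pieces was sequenced as total RNA. The authors deposited estimated counts per gene, made with tximport per the deposited file's name, already whole numbers, and 2 tables of counts divided by 1 factor per sample (a normalised signal, deposited by the authors), used here for gene symbols only, which 51106 of 54532 gene IDs had. Per the submitters' processing notes, STAR 2.6.1d, Salmon 0.14.2, DESeq2 1.30.1 and mm10 were used. Whether counting used strand is not given in the sources used here.

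Here the counts of 46 samples (16824021 to 65042327 each) were fitted with edgeR 4.0.16 in R 4.3.3: filterByExpr, TMM scaling, the quasi-likelihood test with robust dispersion, 1 mean for each of the 16 groups, and Benjamini-Hochberg adjustment over the 21986 genes kept, called under 0.05. Standard errors were taken as log2 fold change over sqrt(F). CPM used TMM library sizes, and log2 CPM a prior count of 2. Python 3.11.15, numpy 2.4.6 and pandas 2.3.3 did the rest, and the fit was tested on simulated data. Alternatives were other size factors, other count filters, DESeq2 1.42.0, the groups compared alone, no day 4 samples, the left-out samples put back, the globins left out of library sizes, the alpha copies summed, a replicate block, and each sample left out. The 6 genes are always named. From each list up to 4 genes with the largest change from day 0 to week 4 were to be named, with the 12 genes most like the 6; genes named for another comparison were chosen after their values were seen. Some genes of these lists are not reported here. The members and lists were chosen with earlier results of these data known.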

Additional observations from a re-analysis of the deposited data

Results flagged for a closer look

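The samples left out of all comparisons, labelled day 6 sample 3, also held red blood cell transcripts. The 4 globin genes made up 0.102% of the counts in the sample labelled duodenum and 0.121% in the sample labelled ileum, above the median of 0.0506% over the 46 samples used. They are given here because they are a signal in data that no comparison used.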

How the results depend on the processing

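The average difference between regions was called for 6 of 6 genes, and the interaction for 0 of 6, under each alternative run. Counts of calls that moved by over 1.5 times follow, without the share of all genes called under each alternative, and the cause was not tested. For duodenum week 4 against day 0, 5 of 6 became 1 without a filter on low counts and 0 on the groups compared alone. On the groups compared alone the 42 tests of duodenum steps gave 5 calls in place of 12, those of the ileum 10 in place of 4, and the 48 regional tests at single ages 18 in place of 0. DESeq2 gave 12 calls for the ileum steps and 4 for the single ages. Without the day 4 samples there were 7 of 30 for the ileum steps and 1 of 42 for the single ages, and rho of the Hbb-bt share in the ileum was -0.458 (permutation p adjusted 0.069). Leaving out 1 sample gave 5 to 6 genes for duodenum age, 2 to 6 for ileum age, 0 to 6 for duodenum week 4, 6 to 12 for duodenum steps, 0 to 10 for ileum steps and 0 to 5 for single ages. It gave rho of -0.557 to -0.310 for Hba over Hbb in the duodenum and -0.605 to -0.424 for the Hbb-bt share in the ileum, whose call was lost in 9 of 23 such cases. Changes from day 0 to week 4 in the ileum, none called, changed sign: leaving out 1 sample gave -0.40 to 0.36 for Hba-a1, -0.57 to 0.42 for Hba-a2, -0.31 to 0.69 for Hbb-bs, -0.30 to 0.72 for Hbb-bt and -0.15 to 0.75 for Alas2. For Hba-a1 it was also -0.030 without the filter, -0.0068 without day 4 and -0.0020 on the groups compared alone. Same-numbered samples of the regions were not shown to pair: over all genes their deviations had a mean r of 0.076 (-0.147 to 0.452), over 0.1 in 9 of 23 pairs. Differently numbered samples were not compared, so these values cannot settle whether a pair came from the same animal. With the replicate block 6 genes were called for duodenum age, 5 for ileum age, 4 for duodenum week 4, 0 for ileum week 4, 6 for the regional average and 0 for the interaction, with 12 and 3 calls for the steps and 0 for single ages. Depth limits Slc4a1 most, at 3 to 678 counts per sample.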
